A study of Mus musculus with 3 samples.

Results

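The Notch receptors, their ligands and the target gene Hes1 were followed through a differentiation of mouse embryonic stem (ES) cells towards liver. The set held 10 genes: the receptors Notch1, Notch2, Notch3 and Notch4, the ligands Dll1, Dll3, Dll4, Jag1 and Jag2, and the transcription factor Hes1. Its members were all gene probes of the array that carry a member's name, which gave 14 of 41174 gene probes, and the 10 genes were among 21653 genes compared. All 10 passed the filter on low signal, which asked for a signal well above background on at least 1 array.

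Total RNA of the mouse ES cell line E14.1 was hybridised to Agilent 1-colour arrays (Cy3 dye) at 3 time points, with 1 array per time point. The series was designed to view gene expression genome-wide before and after the endoderm factor Foxa2 appears. On day 0 the ES cells grew on gelatin in serum-free medium with N2 and B27 supplements, 10 ng/ml of BMP4 and 1000 U/ml of LIF. By day 5 they had been moved to collagen IV with 30 ng/ml of activin A in place of BMP4 and LIF, and these cells are labelled definitive endoderm. Day 7 followed 2 more days with 30 ng/ml of BMP4 and 10 ng/ml of bFGF added to the activin A, and these cells are labelled early hepatic cells. All 3 groups came from 1 cell line without a genetic change named in the labels, and unsorted cultures were profiled. Because no group had a second array, no test between days was possible, and each difference is one between a pair of arrays. Fewer cells of a type and less RNA per cell cannot be told apart in such bulk samples.

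Notch receptors sit in the cell membrane and are activated by Delta-like and Jagged ligands on a neighbouring cell. Binding exposes the receptor to an ADAM protease and then to gamma-secretase, which frees an intracellular domain that joins Rbpj and a Mastermind co-activator on DNA and turns on Hes and Hey genes. In the embryo, Dll1 and Dll3 are known from the presomitic mesoderm, Notch4 and Dll4 from blood vessels, Jag1 and Notch2 from bile duct formation in the liver, and Hes1 from holding back endocrine genes in the gut endoderm.

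The probes decide which part of each transcript was read. All 14 are oligonucleotides of 60 bases, and their place in exons or UTRs was not looked up here. The only Hes1 probe is printed, as are the Jag1 and Notch2 probes that lie farthest upstream in their transcripts, because the account of those genes rests on more than 1 probe. The Hes1 probe maps to chr16:30065983-30066278 on the plus strand of mm9, a span 236 bases longer than the probe, as where a probe crosses an intron. The upstream Jag1 probe (chr2:136908942-136909001, minus strand) gave the same calls as the other Jag1 probe, and the upstream Notch2 probe (chr3:97951205-97951264, plus strand) did not give the calls of the probe that stands for its gene.
Hes1 A_51_P498093: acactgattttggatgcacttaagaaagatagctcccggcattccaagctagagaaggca
Jag1 A_51_P280906: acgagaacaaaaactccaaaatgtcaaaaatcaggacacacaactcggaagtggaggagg
Notch2 A_51_P216397: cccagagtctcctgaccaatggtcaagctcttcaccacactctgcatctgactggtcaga

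Dll1 and Dll3 had the largest differences of the set, and their promoters were read for motifs of factors linked to Notch signalling and to early mesoderm and endoderm. The 250 bases before each start site come from RefSeq's GRCm38.p6, a later build than that of the probes. The promoter table matched 9 of the 10 members with 10 promoters, and Hes1 had no entry. Of the motifs searched on both strands, the Rbpj motif GTGGGAA was in 0 of the 10 promoters and in 5.42% of 32851 promoters of all genes. The T-box motif AGGTGTG (5.1% of all promoters), the TCF/LEF motif CTTTGAT (3.21%) and the FOXA motif TGTTTAC (3.17%) were also in 0 of the 10. The N box CACNAG, to which Hes proteins bind, was in 4 (Notch1, Notch2, Notch3 and Dll4) and in 36.7% of all promoters. Dll1 has 2 start sites in the table, at chr17:15375824-15376073 and chr17:15376933-15377182, and the Dll3 window is chr7:28301786-28302035, all on the minus strand. The promoter of Hes5, a Notch target outside the set, at chr4:154960673-154960922 on the plus strand, is set beside them because it holds the Rbpj motif in both orientations, in capitals, beginning 226 and 83 bases before the start. A match describes letters in this window and is not a measured binding site, and a window without one says nothing about the factor.
Dll1 first start site: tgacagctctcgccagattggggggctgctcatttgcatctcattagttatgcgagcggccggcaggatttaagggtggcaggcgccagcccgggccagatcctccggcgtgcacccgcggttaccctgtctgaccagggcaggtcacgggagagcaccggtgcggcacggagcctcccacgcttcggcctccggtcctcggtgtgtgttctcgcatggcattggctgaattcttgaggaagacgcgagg
Dll1 second start site: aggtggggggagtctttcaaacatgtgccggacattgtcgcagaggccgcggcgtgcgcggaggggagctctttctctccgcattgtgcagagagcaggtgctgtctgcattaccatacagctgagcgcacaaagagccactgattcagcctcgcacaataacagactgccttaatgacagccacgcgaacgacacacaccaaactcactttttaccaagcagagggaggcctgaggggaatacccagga
Dll3: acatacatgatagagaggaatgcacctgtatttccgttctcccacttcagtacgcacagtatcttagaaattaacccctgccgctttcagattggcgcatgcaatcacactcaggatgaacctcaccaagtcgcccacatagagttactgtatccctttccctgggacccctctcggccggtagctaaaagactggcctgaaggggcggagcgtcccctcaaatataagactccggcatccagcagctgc
Hes5: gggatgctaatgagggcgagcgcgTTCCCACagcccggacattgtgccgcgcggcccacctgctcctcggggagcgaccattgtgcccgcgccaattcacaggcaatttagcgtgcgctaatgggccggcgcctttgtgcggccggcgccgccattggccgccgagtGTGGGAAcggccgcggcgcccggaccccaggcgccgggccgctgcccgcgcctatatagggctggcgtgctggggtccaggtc

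Each signal below is the log2 processed intensity minus the array's 75th percentile, so 0 is a spot as bright as that percentile. The 75th percentile was at an intensity of 1563.8 on day 0, 2050.7 on day 5 and 2053.2 on day 7, and between 70.92% and 71.7% of the gene spots were well above background. Levels of single genes are compared between days for 1 probe at a time. Summed signals of marker panels add different probes, so a brighter probe weighs more in a sum. Notch1 and Dll1 each had a probe printed at 10 places on the array, which gives a spread over spots. For the other probes, with 1 spot each, the error is the extraction software's own estimate, about 0.14 log2 for bright spots. Both errors are technical and hold nothing of the spread between cultures. Marker genes were read against the labels. The summed signal of 5 ES cell markers, relative to the 75th percentile, went from 160 on day 0 to 7.00 on day 5 and 1.90 on day 7. On the same days the sum for 6 definitive endoderm markers was 0.319, 133 and 36.7, and that for 6 early hepatic markers 0.997, 17.7 and 30.7. Not well above background were Cer1, Foxa1, Ttr and Alb on day 0, and Alb on day 7. Hhex alone made up 17.0 of the hepatic sum on day 5 and was 5.05-fold lower on day 7, when Afp led with 14.2. A panel of 8 markers of visceral endoderm, a tissue outside the embryo proper that shares genes with liver, had a summed signal of 90.1 on day 7. All 8 were called higher on day 7 than on day 5, where 5.97% of all genes were.

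**Figure D1:**
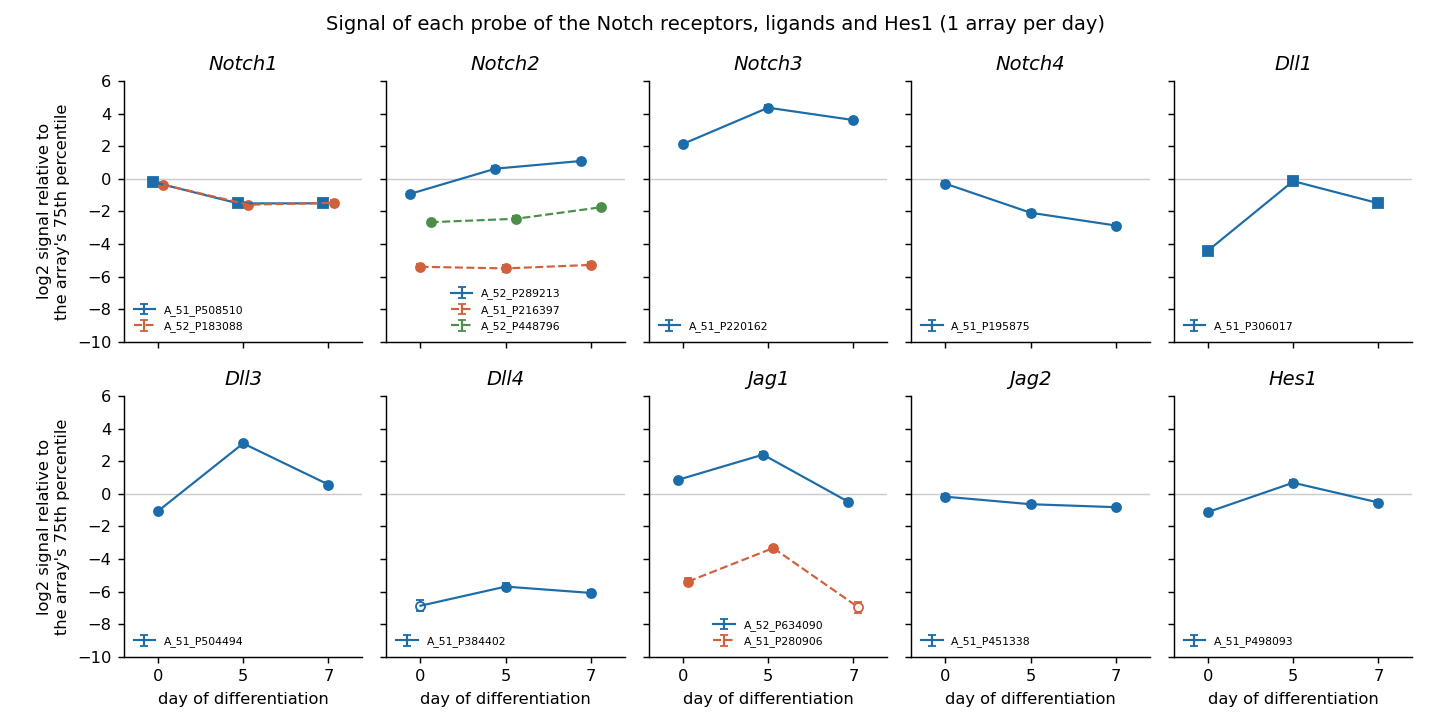
Log2 signal relative to the array's 75th percentile (vertical axis) on days 0, 5 and 7 (horizontal axis, drawn at equal steps) for each probe of the 10 genes. Solid lines are the probes that stand for the gene, dashed lines are further probes, and open circles were not well above background. Squares are means of 10-spot probes with the SD over spots (9 spots were used for Notch1 on day 5), and circles are single spots with the software's error. Notch3, Dll1, Dll3, Jag1 and Hes1 were highest on day 5, while Notch1 and Notch4 were highest on day 0.

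The receptors went in both directions. Notch2 and Notch3 were higher on both later days than in ES cells, and Notch1 and Notch4 were lower on both.

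Notch1, a receptor with broad roles in cell fate choice, was read by 2 probes whose positions share 1 base. The probe with 10 spots (chr2:26314772-26314830, minus strand) had a signal of -0.19 ± 0.047 (SD over 10 spots) on day 0, -1.51 ± 0.031 (9 spots) on day 5 and -1.51 ± 0.074 (10 spots) on day 7. Every spot on day 0 lay above every spot on the later days, and the later days overlapped. The difference was -1.31 on day 5 against day 0, which is 2.49-fold lower, and -1.31 on day 7 against day 0, or 2.48-fold lower. Days 5 and 7 differed by 0.00. The single-spot probe (chr2:26314830-26314889) gave -0.36, -1.59 and -1.47 on the 3 days, and differences of -1.23, -1.12 and 0.12. Both Notch1 probes thus gave the lower level by day 5 and under 0.2 of further difference.

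Notch2, the receptor paired with Jag1 in bile duct formation, was read by 3 probes that did not give the same answer. The brightest, which stands for the gene (chr3:97953914-97953973, plus strand), had a signal of -0.93 on day 0, 0.62 on day 5 and 1.09 on day 7. It was 2.92-fold higher on day 5 than on day 0 (difference 1.55 ± 0.20, software error) and 4.05-fold higher on day 7 (2.02 ± 0.20). The probe starting 1071 bases upstream (chr3:97952843-97952902) had -2.66, -2.45 and -1.75, and its differences from day 0 were 0.21 on day 5 and 0.92 on day 7. The probe printed above, 2709 bases upstream of the brightest, had -5.40, -5.50 and -5.29, with differences of -0.10 and 0.12. The increase in Notch2 therefore rests on the probe nearest the transcript's end, was below the threshold in the middle probe, and was smaller than the software's error in the one farthest upstream. The cause of the disagreement was not tested.

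Notch3, a receptor known from vascular smooth muscle, had 1 probe (chr17:32257848-32257907, minus strand). Its intensity on days 0, 5 and 7 was 6883, 42201 and 24989, or signals of 2.14, 4.36 and 3.61. It was 4.68-fold higher on day 5 than on day 0 (2.23 ± 0.20) and 2.77-fold higher on day 7 (1.47 ± 0.20). The step from day 5 to day 7 was -0.76 ± 0.20, larger than the technical error but short of the threshold. Markers of pericytes and smooth muscle changed over the same days. Their summed signal on days 0, 5 and 7 was 12.1, 18.8 and 36.4, with 7 of 8 markers well above background on each array and Abcc9 on none. Of those 7, 3 were called higher on day 5 and 4 on day 7 than on day 0, where 16.5% and 16.2% of all genes were. That sum was highest on day 7, whereas Notch3 was highest on day 5, and the part of such cells in the Notch3 result was not tested.

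Notch4, the receptor known from endothelium, had 1 probe (chr17:34725120-34725179, plus strand) and was lower on both later days than on day 0. Its signal went from -0.30 on day 0 to -2.08 on day 5 and -2.87 on day 7. It was 3.44-fold lower on day 5 than on day 0 (-1.78 ± 0.20) and 5.93-fold lower on day 7 (-2.57 ± 0.21), while the step from day 5 to day 7, at -0.78 ± 0.21, fell short of the threshold and was 0.22 with another background correction (limma's normexp, fitted on all spots). Of the receptors, Notch4 had the largest decrease from day 0 to day 7. The endothelial panel did not move as a block beside it. On days 0 and 5, 7 of its 10 markers were well above background, and 10 on day 7, and its summed signal was 0.946, 1.42 and 2.24 on days 0, 5 and 7, of which Kdr made up 1.02 on day 5 and 1.73 on day 7. Within the panel Pecam1, Tek and Robo4 were lower and Cdh5 and Kdr higher on both later days than on day 0.

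Among the ligands, Dll1, Dll3 and Jag1 had their highest signal on day 5, Dll4 was close to the background throughout, and Jag2 differed little between days.

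Dll1, a ligand that activates Notch receptors on neighbouring cells, had the largest difference of the set. Its probe (chr17:15504623-15504682, minus strand, 10 spots) had a mean intensity of 74.05, 1861 and 727 on days 0, 5 and 7. The signals were -4.41 ± 0.155 on day 0, -0.14 ± 0.096 on day 5 and -1.50 ± 0.094 on day 7 (SD over 10 spots each). No spot of 1 day overlapped with a spot of another. Dll1 was 19.2-fold higher on day 5 than on day 0 (4.26 ± 0.18), which ranked 259 from the highest among 21653 genes, and 7.50-fold higher on day 7 than on day 0 (2.91 ± 0.18). From day 5 to day 7 it was 2.56-fold lower (-1.36 ± 0.13). The day 0 intensity was low, so the fold against it depends on the background correction. Normexp fitted on all spots placed the mean background on day 0 at an intensity of -1242, and the day 5 difference was then 0.67. In every other processing setting the day 5 call was kept.

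**Figure D2:**
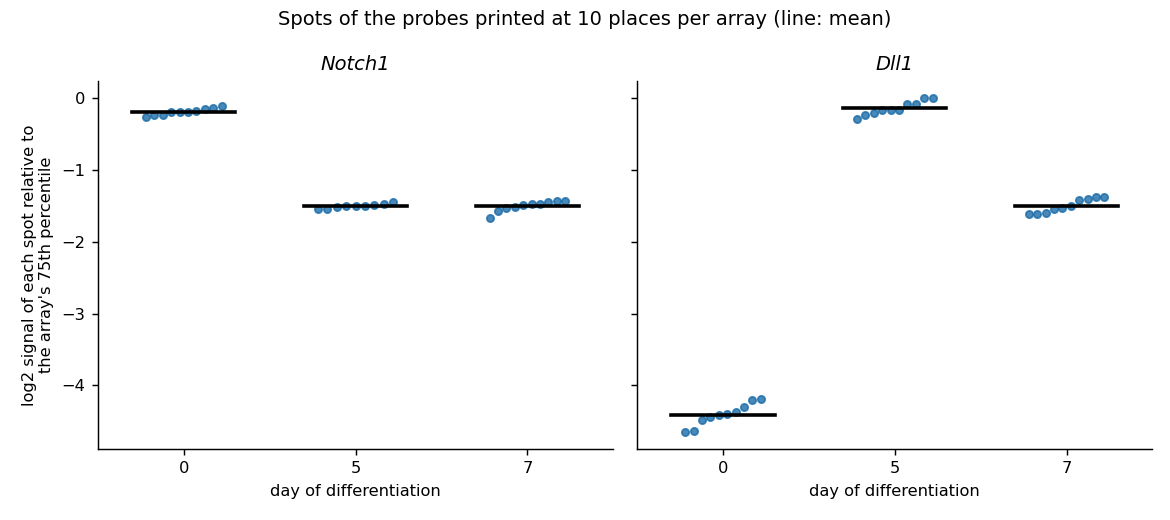
Log2 signal of each spot relative to the array's 75th percentile (vertical axis) on days 0, 5 and 7 (horizontal axis) for the Notch1 and Dll1 probes printed at 10 places on each array, sorted by brightness, with the mean as a line. The 3 days of Dll1 are apart by more than the spread of spots, and for Notch1 day 0 is apart from days 5 and 7, whose means are both -1.51. Spots of 1 array share 1 RNA sample and are not replicates of a day.

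Dll3, a divergent ligand that acts inside the cell that makes it and is known for its part in forming vertebral segments, followed the same course. Its probe (chr7:29078763-29078822, minus strand) had an intensity of 749.8 on day 0, 17532 on day 5 and 3050 on day 7, with signals of -1.06, 3.10 and 0.57. It was 17.8-fold higher on day 5 than on day 0 (4.16 ± 0.20, rank 287 from the highest), and 3.10-fold higher on day 7 than on day 0 (1.63 ± 0.20). Between days 5 and 7 it was 5.76-fold lower (-2.53 ± 0.20), which ranked 330 from the lowest. Dll3 thus lost more of its day 5 level by day 7 than Dll1, whose difference over the same step was -1.36.

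Dll4, the ligand that restrains sprouting of vessels, was barely detected. Its probe (chr2:119160779-119160838, plus strand) had an intensity of 13.39 on day 0, not well above background, 39.67 on day 5 and 30.33 on day 7. Set against the lowest signal among probes well above background on the day 0 array, it was at least 2.15-fold higher by day 5. The bound for day 7 was at least 1.64-fold. The day 5 value passed the threshold narrowly and fell short of it with median scaling (0.99) and with both normexp corrections.

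Jag1, a Jagged ligand whose loss in people impairs bile duct formation, was read by 2 probes that gave the same order of days. The brighter one (chr2:136907433-136907492, minus strand) had an intensity of 2836 on day 0, 10880 on day 5 and 1467 on day 7, with signals of 0.86, 2.41 and -0.49. It was 2.92-fold higher on day 5 than on day 0 (1.55 ± 0.20). On day 7 it was 2.54-fold lower than on day 0 (-1.34 ± 0.20) and 7.43-fold lower than on day 5 (-2.89 ± 0.20), which ranked 233 from the lowest among 21653 genes. Jag1 was the only ligand called lower on day 7 than in ES cells. The probe printed above, 1509 bases upstream, had signals of -5.38, -3.33 and -6.97, and its day 7 value was not well above background. It was 4.16-fold higher on day 5 than on day 0, at least 3.00-fold lower on day 7 than on day 0 and at least 12.5-fold lower on day 7 than on day 5. Each Jag1 probe therefore gave an increase by day 5 and a larger decrease by day 7.

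Jag2, the other Jagged ligand, was the member with the smallest range. Its probe (chr12:114146887-114146946, minus strand) had signals of -0.17, -0.64 and -0.82 on days 0, 5 and 7. The differences were -0.46 and -0.64 against day 0 and -0.18 between days 5 and 7, each with a software error of 0.20. None passed the threshold.

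Hes1, the repressor that many tissues switch on when Notch is active, was highest on day 5. Its intensity on days 0, 5 and 7 was 720.3, 3295 and 1421, with signals of -1.12, 0.68 and -0.53. It was 3.49-fold higher on day 5 than on day 0 (1.80 ± 0.20) and 2.32-fold lower on day 7 than on day 5 (-1.22 ± 0.20). Day 7 was 1.50-fold above day 0 (0.59 ± 0.20), short of the threshold.

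Genes were called higher or lower when their log2 signal differed by 1 or more (2-fold) and the brighter array showed them well above background. On day 5 against day 0, 7 of the 10 members were called higher (Notch2, Notch3, Dll1, Dll3, Dll4, Jag1 and Hes1) where 16.5% of the 21653 genes were, and 2 were called lower (Notch1 and Notch4) where 16.1% were. The median difference of the members was 1.55, and that of all genes compared was -0.11. By role, 4 of 5 ligands were called higher and 0 lower, while the 4 receptors were divided into 2 higher and 2 lower. The 7 include Dll4, which is a bound near the threshold, and Notch2, which only 1 of its 3 probes carries.

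On day 7 against day 0, 4 members were called higher (Notch2, Notch3, Dll1 and Dll3), where 16.2% of genes were, and 3 lower (Notch1, Notch4 and Jag1), where 19.1% were. The median of the members was 0.65 against -0.19 for all genes. On day 7 against day 5, 0 members were called higher, where 5.97% of genes were, and 4 were called lower (Dll1, Dll3, Jag1 and Hes1), where 8.38% were. There the median was -0.77 against -0.06. The receptors gave no call between days 5 and 7, and the 4 lower genes were 3 of the 5 ligands and Hes1. These comparisons share arrays, so the same day 5 signal enters the first as the higher level and the last as the reference, and they are not independent. Over genes measured well above background on each array of a pair, the median shift came to -0.13, -0.20 and -0.09 in the 3 comparisons, and taking it off changed 0 of the 10 calls in each.

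**Figure D3:**
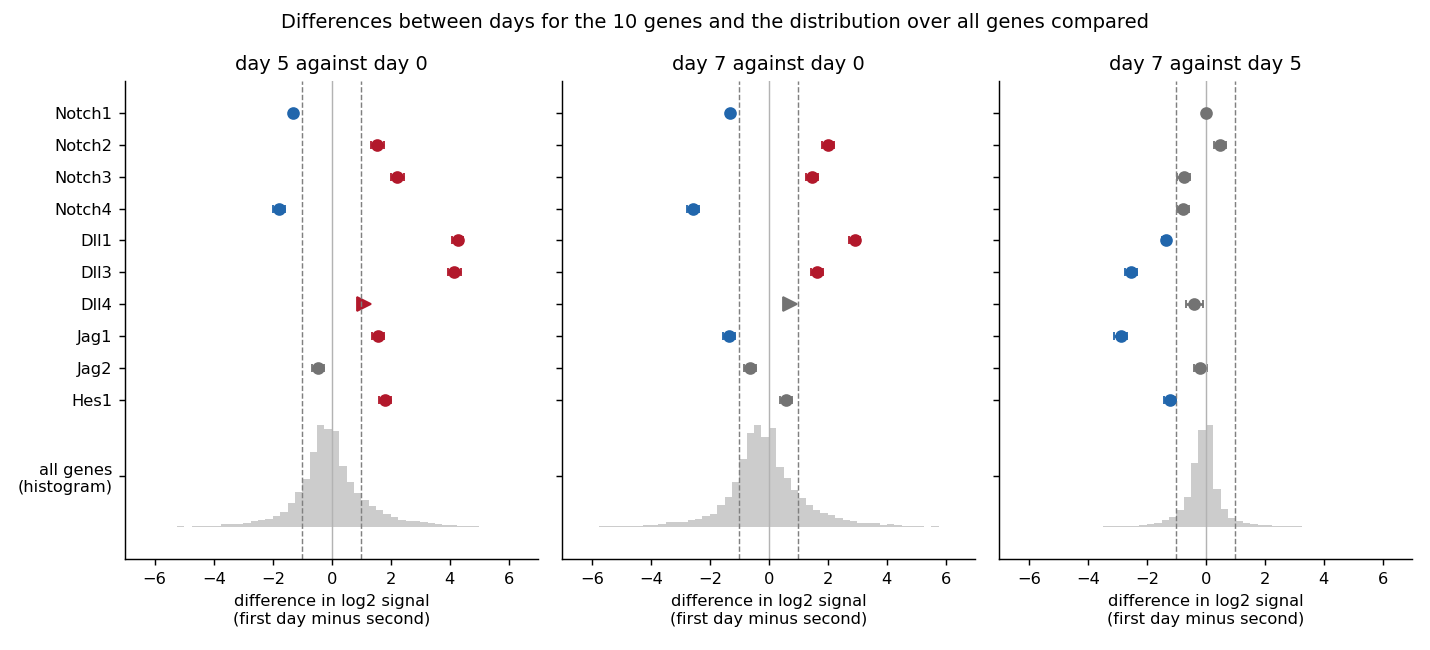
Difference in log2 signal between days (horizontal axis) for the probe that stands for each of the 10 genes (vertical axis), in the 3 comparisons, over a histogram of all 21653 genes compared that is scaled to its own peak and drawn between -7 and 7. Red is called higher, blue called lower and grey not called. Bars are the technical error, triangles are bounds, and dashed lines mark a difference of 1 in either direction. On day 5 against day 0 Dll1 and Dll3 lie at 4.26 and 4.16, far in the tail of the histogram, and on day 7 against day 5 no member lies beyond 1 on the right.

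The other genes of the pathway were taken from 7 lists by role: modifiers, proteases, the nuclear complex, inhibitors and turnover, non-canonical ligands, Hes and Hey targets, and Tle co-repressors. Each list is described by its calls and its median, without a test. Of all genes, 16.5% were called higher and 16.1% lower on day 5 against day 0, and 16.2% and 19.1% on day 7 against day 0, and a list's share near these is no result about the list.

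The list of proteases that process the receptor had calls in 1 direction under the main setting. On day 5 against day 0, 3 of 10 were called higher and 0 lower, with a median difference of 0.70 against -0.11 for all genes, and on day 7 against day 0, 4 were higher and 0 lower, with a median of 0.93 against -0.19. The day 5 median was 0.28 with normexp fitted without outlier spots, and with normexp on all spots it was 0.05, with 2 proteases higher and 2 lower. The day 7 median was 0.59 without outlier spots and 0.28 on all spots, the latter again with 2 higher and 2 lower. Furin, which cuts the receptor on its way to the membrane, had signals of -0.81, 1.29 and 1.46 on days 0, 5 and 7, and was 4.30-fold higher on day 5 and 4.84-fold higher on day 7, a call that 1 of its 2 probes gave. Aph1b, a gamma-secretase subunit, had -2.81, -1.33 and -0.04, and was 6.81-fold higher on day 7 than on day 0 with all 3 of its probes called. Its near-identical copy Aph1c was not well above background on day 0. It was at least 2.10-fold higher on day 5, a bound near the threshold (1.07), and at least 5.94-fold higher on day 7. The probes of such copies may share signal. Adam10, the protease that makes the first cut after ligand binding, was 2.04-fold higher on day 7 than on day 0, a difference (1.03) that narrowly passed the threshold.

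Most genes that modify ligands and receptors were not called. Of 8 compared, 1 was higher on day 5 than on day 0, the ubiquitin ligase Mib1 that activates ligands (signals 1.98, 3.31 and 2.89, 2.52-fold, with 1 of its 3 probes called). The exception on day 7 was Mfng, a glycosyltransferase that tunes which ligand a receptor answers to. Its signals on days 0, 5 and 7 were -0.93, -1.58 and -4.65, which is 13.1-fold lower on day 7 than on day 0 and 8.38-fold lower than on day 5. Its relative Lfng was low on all days, at -5.86, -6.23 and -6.01, with no call.

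In the nuclear complex of 13 genes, 1 was higher and 2 were lower on day 5 than on day 0, and 0 were higher and 2 lower on day 7. Rbpj, the DNA-binding protein through which the receptor acts, had signals of 3.09, 1.21 and 0.98, and was 3.67-fold lower on day 5 and 4.30-fold lower on day 7 than on day 0. The acetyltransferase gene Kat2b had 0.57, -1.87 and -1.72 and was 5.43-fold lower on day 5, with both of its probes called. The co-activator Maml1 was 2.18-fold higher on day 5 than on day 0, at 2.24 against 1.11. Rbpj was thus lower on the same array on which Hes1, Dll1 and Dll3 were at their highest.

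Of 11 genes for inhibition and turnover, 1 was higher and 1 lower on day 5 than on day 0. The number higher was 3 with the median over each gene's probes. It was 2 with quantile normalization, the authors' table and normexp on all spots, the last of which gave 3 lower. Nrarp, a target that limits the receptor's intracellular domain, had signals of -4.78, -1.81 and -3.79. It was 7.79-fold higher on day 5 than on day 0 and 3.92-fold lower on day 7 than on day 5, so its highest day was that of Hes1. Dtx1, a ubiquitin ligase linked to the receptor, was lower at each step, with signals of 2.28, -0.47 and -2.59, and was 29.2-fold lower on day 7 than on day 0. Numb, which removes the receptor from the membrane, had differences of -0.04 and 0.29 from day 0.

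Among 7 non-canonical ligands, 2 were higher and 1 lower in both comparisons with day 0. Dlk1, a membrane protein known from fetal liver progenitors, had signals of -1.87, -0.69 and 1.62, and was 11.3-fold higher on day 7 than on day 0, with both probes called. Cntn1, a contactin, was 4.95-fold higher on day 5 than on day 0, with 2 of its 3 probes called. Mfap5, a microfibril protein, had a signal of -1.59 on day 0 and was not well above background afterwards, which makes it at least 33.9-fold lower on day 5.

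The Hes and Hey list also counts Nrarp, Bhlhe40 and Bhlhe41, which are not Hes or Hey genes. It held 10 compared genes, of which 4 were higher and 1 lower on day 5 than on day 0, with a median of 0.63. On day 7 against day 0, 6 were higher and 1 lower, with a median of 1.21. Bhlhe41 was among the higher genes on both days (1.45 and 1.80 against day 0), and Bhlhe40 on day 7 (1.09). These counts and medians moved with the background correction. With normexp on all spots the day 5 median was -1.10, with 2 higher and 5 lower, and the day 7 median was -0.42. With normexp fitted without outlier spots the medians were 0.21 and 0.71, with 4 higher on day 5, 3 higher on day 7 and 0 lower on either day. Hey1, a repressor that answers to Notch, had signals of -1.26, 1.84 and 0.95, and was 8.58-fold higher on day 5 and 4.64-fold higher on day 7 than on day 0. Heyl was not well above background on day 0, at least 8.68-fold higher by day 5, with a day 7 bound of at least 5.23-fold and both probes called each time. Hey2 differed from these in its timing. It had -5.52, -5.21 and -2.87, and was 6.31-fold higher on day 7 than on day 0 with no call on day 5. Hes5, whose promoter is printed above, was lower at -3.21, -4.40 and -4.52, which is 2.28-fold on day 5 and 2.48-fold on day 7, a call lost on both days with normexp fitted without outlier spots. Hes6, a member of the family known to oppose Hes1, was 2.51-fold higher on day 7 than on day 0. Hes3 was not well above background on any array and Hes7 only on day 7. The targets on this array did not move together: Hes1, Hey1 and Nrarp were highest on day 5, Hey2 on day 7 and Hes5 on day 0.

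The Tle co-repressors, partners of Hes proteins, gave 1 call in each direction on day 5 against day 0 out of 6. Tle2 had signals of -2.91, 0.17 and -1.25 and was 8.45-fold higher on day 5. Tle4 had 5.07, 3.35 and 2.82 and was 3.30-fold lower on day 5 and 4.74-fold lower on day 7 than on day 0.

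**Figure D4:**
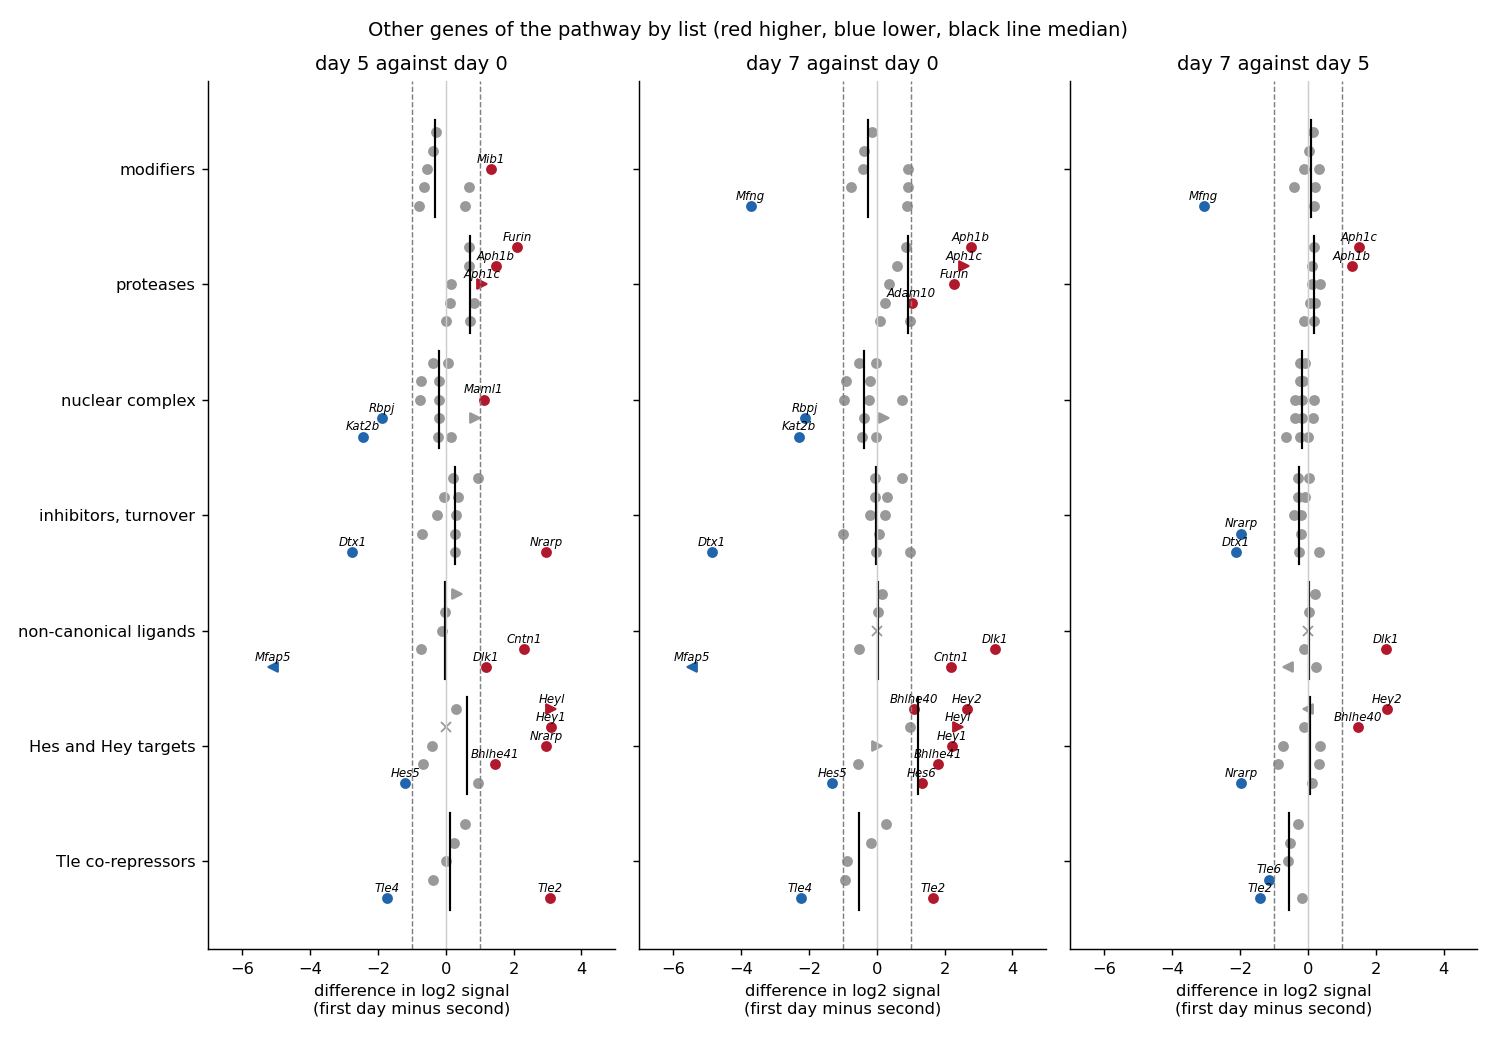
Difference in log2 signal between days (horizontal axis) for the genes of 7 pathway lists (vertical axis, genes of a list spread over steps to be seen) in the 3 comparisons. Red is called higher, blue called lower and grey not called. Triangles are bounds, and crosses were not well above background on either array. The black line is the list's median and dashed lines mark a difference of 1 in either direction. Nrarp is drawn in 2 lists. The protease medians lie at 0.70 and 0.93 in the comparisons with day 0, and Mfng, Dtx1 and Mfap5 are the lowest points on day 7 against day 0.

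Of 10 listed genes known to be repressed by Hes1, 8 were compared. On day 5 against day 0, 2 were higher, 1 was lower and 5 were not called, where 67.5% of all genes were not called, with a median of -0.17 against -0.11 for all genes. Neurod1, an endocrine and neural factor, had a signal of -2.37 on day 0 and was not well above background on days 5 and 7, at least 21.0-fold lower on day 5. Neurog3, the factor that starts endocrine differentiation in the gut and pancreas, had -4.05, -4.20 and -4.68 and was not called. The cell cycle inhibitor Cdkn1a was 2.63-fold higher on day 5 than on day 0, and Cdkn1c was 4.41-fold higher on day 7 than on day 5. The neural panel, which shares 3 genes with this list, had a summed signal of 4.94, 4.06 and 4.39 on the 3 days. Its members went in both directions, with Tubb3, Elavl3 and Stmn2 lower and Nes higher on both later days than on day 0, and Nes made up 3.51 of the day 7 sum.

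Dll1 and Dll3 are also genes of the presomitic mesoderm, and other genes of that tissue were read beside them. In the list of 14 segmentation genes, which holds both ligands, 11 were compared. Of these, 6 were higher and 1 lower on day 5 than on day 0, where 16.5% and 16.1% of all genes were. With normexp on all spots these were 1 higher and 6 lower, and the median went from 1.30 to -1.01. Dll1 and Dll3 were themselves among the 6 higher genes, and their differences of 4.26 and 4.16 enter the median of 1.30. The rest of the 6 were Meox1 (3.28), Tbx6 (1.69), Mesp2 (1.68) and Nkd1 (1.30). Mesp2, a factor of segment borders, had signals of -3.74, -2.06 and -4.03, highest on day 5 like the ligands. Meox1 had -5.53, -2.26 and -3.63 and was 9.70-fold higher on day 5 than on day 0, with both probes called. Tbx6, a factor that activates Dll1 in this tissue, was instead highest on day 7, at -2.52, -0.83 and -0.44, and Msgn1, another such factor, was called only on day 7 (-5.65, -6.03 and -3.89). Tcf15 was lower at each step, from 3.47 to -0.59 and -2.68. In the presomitic marker panel, 4 of 5 compared genes were well above background on days 0 and 5 and 5 on day 7, and its summed signal was 0.759, 9.38 and 2.36. Dll3 itself made up 0.48, 8.55 and 1.49 of those sums. The part of mesodermal cells in the results for Dll1 and Dll3 was not tested.

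Biliary genes, for which Jag1 and Notch2 are best known in liver, gave calls in both directions. Of 9, 4 were higher and 1 lower on day 5 than on day 0, where 16.5% and 16.1% of all genes were. On day 7 against day 0, 3 were higher and 2 lower, where 16.2% and 19.1% were. With normexp on all spots 4 were lower on each day, while the counts of higher genes stayed the same. The medians then went from 0.36 to -0.58 on day 5 and from -0.03 to -0.85 on day 7. Sox9, a factor of the biliary lineage, had a signal of -5.72 on day 0 and -1.74 on day 5, lay at the array's 75th percentile on day 7, and was 52.6-fold higher on day 7 than on day 0, with 2 of its 3 probes called. Krt19, a duct keratin, had 1.23, 2.57 and 4.48 on the 3 days. Krt7, the other duct keratin, had 0.93, 3.65 and -0.30, with its highest level on day 5 like Jag1, and was 15.4-fold lower on day 7 than on day 5 with both probes called. Spp1 was lower at each step, at 6.23, -0.04 and -2.30. These genes are also made outside bile ducts. The visceral endoderm panel had all 8 markers well above background on each array and a summed signal of 31.6, 6.47 and 90.1 on days 0, 5 and 7. Rhox5 made up 28.5 of the day 0 sum and 3.38 of the day 5 sum. On day 5 against day 0, 4 of the 8 were higher and 3 lower, where 16.5% and 16.1% of all genes were. The part of such cells in the results for Jag1 and Notch2 was not tested.

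Genes with the course most like a member's were sought over the 3 arrays among 18479 genes well above background on each, by the distance between their 2 differences from day 0. From the nearest genes named, entries with only a clone, RIKEN, LOC, Gm or database name were left out. For Hes1, the nearest were Kcnc4 (distance 0.01), Pde1c (0.05), Sirpa (0.07), Slc36a4 (0.08) and Egln1 (0.10), and 221 genes lay within 0.5. For Dll1, the member with the widest range, the nearest were Grb10 (0.04), Tmem184a (0.12), Irx1 (0.14), Olfm1 (0.17) and Rbp4 (0.18), and 21 genes lay within 0.5. Within the set, Notch3 was the nearest member to Hes1 at 0.98, and Dll3 the nearest to Dll1 at 1.28. With 3 arrays such a distance is a description of 2 numbers per gene.

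**Figure D5:**
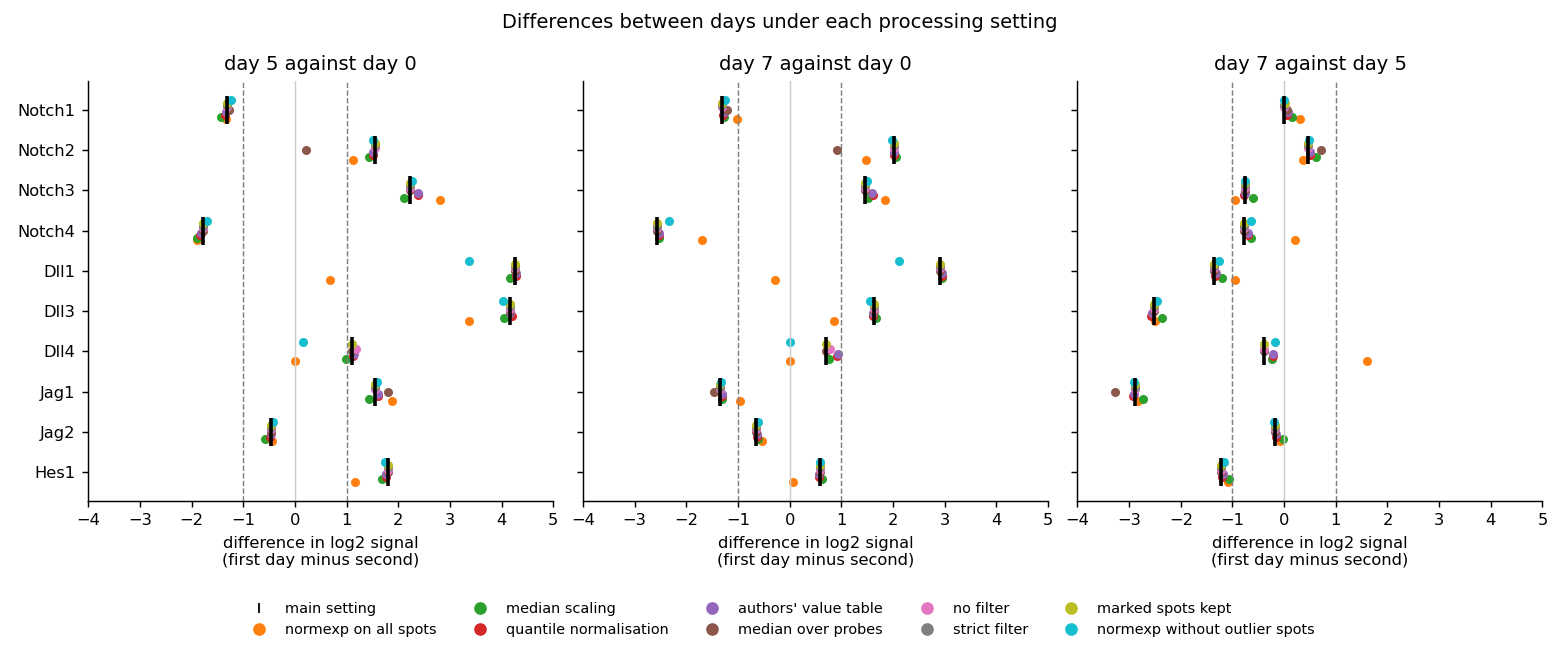
Difference in log2 signal between days (horizontal axis) for the 10 genes (vertical axis) under the main setting (black bar) and 9 other processing settings (dots), with dashed lines at a difference of 1 in either direction. The dots lie close to the bar for Notch1 and Jag2. They lie farther off for Notch2 with the median over its probes, for Dll1 and Dll4 with both normexp corrections, and for Notch4 with normexp on all spots.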

How the data were processed

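Total RNA was measured on 3 Agilent 1-colour arrays, 1 per day. Per the file headers, the authors extracted the scans with Agilent Feature Extraction 10.5.1.1, and probe positions are on mm9 (NCBI37). The deposited scanner files hold a background-corrected intensity per spot on a linear scale. The deposited value table holds log2 values that correlated with the log2 processed intensity at 0.99984 to 0.99998 over its matched probes, with column medians of 7.1786 to 7.1797; it is not centred per gene, and the sources used do not give its normalization.

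Here, the 75th percentile of the array was subtracted from each log2 intensity. Control spots and the 149, 104 and 131 gene spots (days 0, 5 and 7) marked as outliers were left out, and no gene spot was saturated. Spots of a probe were averaged. Each gene was read from 1 probe, the one well above background on most arrays and then the brightest. Symbols came from RefSeq accessions (24844 probes) or symbols (6045), and 10285 probes kept the name in the files. A probe counted as well above background where more than 50% of its spots did. Probes too dim for that mark took the array's lowest marked value, or their own where higher, which makes the difference a bound. Calls needed a log2 difference of 1. The members, lists and settings were chosen with earlier results of these data known. The genes named are the members, up to 4 called genes per list, direction and comparison, 8 fixed pathway genes, and the 5 nearest in course to Hes1 and Dll1; Numb, Hes3, Hes7 and Neurog3 were added after their values were seen. Some listed genes are counted in their lists but not reported here by name. The call rule was tested on simulated data, with planted changes larger than the threshold in genes far above background. That run held no spread between cultures, so it checks how the rule works and not the calls on these arrays. Python 3.11.15, numpy 2.4.6, pandas 2.3.3, R 4.3.3 and limma 3.58.1 (normexp) were used. Alternatives were 2 normexp corrections (1 added after seeing the data), median scaling, quantile normalization, the authors' table, no filter, a strict filter, marked spots kept and the median over probes. Both normexp corrections added an offset of 50 to the corrected intensity, which makes log2 differences between dim spots smaller. The number of arrays limits the precision.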

Additional observations from a re-analysis of the deposited data

How the results depend on the processing

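With 1 array per day, no setting gives the spread between cultures, and all errors are technical. Of 267 differences of the 10 genes under 9 alternatives, 256 kept their call or their lack of one, 9 called differences fell short of the threshold, 1 that was not called (Dll4 on day 7 against day 5) passed it at 1.60 and 1 called difference turned. By sign alone, 261 kept it, 3 came to 0 (Dll4 against day 0) and 3 took the opposite one, all with normexp on all spots: Dll1 on day 7 against day 0 (-0.28), and on day 7 against day 5 Dll4 (1.60) and Notch4 (0.22 in place of -0.78). Those that fell short were Notch2 with the median over its probes (0.21 on day 5 and 0.92 on day 7 against day 0), Dll4 on day 5 against day 0 with median scaling (0.99) and both normexp corrections (0.00 on all spots, 0.15 without outlier spots), and, with normexp on all spots, Dll1 on day 5 (0.67) and Dll3 (0.86) and Jag1 (-0.96) on day 7 against day 0, and Dll1 on day 7 against day 5 (-0.94).

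Normexp on all spots turned Dll1 on day 7 against day 0 (-0.28) and the second Jag1 probe, A_51_P280906, on day 5 against day 0 (-2.05). Its fit placed the mean background at -1242 on day 0, where the lowest net intensity was -60709, at -12.7 on day 5 and at -344.5 on day 7. Under it the members called higher were 2 on day 7 against day 0 and 1 on day 7 against day 5. Pathway genes called lower were 34 on day 5 against day 0, those on day 7 against day 0 were 14 higher and 31 lower, and those on day 7 against day 5 were 24 higher and 5 lower. Of all genes, 1748 were higher and 9566 lower on day 5 against day 0, 1583 and 8547 on day 7 against day 0, and 6275 and 441 on day 7 against day 5. Normexp fitted without outlier-marked spots, chosen after seeing the data, placed the background at 2.03 to 5.67. Like the fit on all spots, it added an offset of 50 to each intensity. It moved 1 of the counts over the members, the pathway lists together and all genes. All genes lower on day 7 against day 5 were 1020 in place of 1815, and the part of the offset in this was not tested. The other 7 alternatives kept these counts within 1.5 times. Counts and medians of single lists are small numbers and moved more often: of 90, 54 moved with normexp on all spots, 8 with normexp without outlier spots, 8 with the median over probes, 6 with no filter, 6 with the strict filter, 3 each with median scaling, quantile normalization and the authors' table, and 0 with marked spots kept. The share of calls that were higher moved by under 10 percentage points with scaling, at most from 41.58% to 51.41%, on day 7 against day 5 with median scaling.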
